A study of Mus musculus with 25 samples.

Results

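The proteasome subunits and molecular chaperones of the mouse hypothalamus were compared between mice that carried a colon carcinoma and mice that had received saline. The genes were taken by symbol from the annotation of the array platform, namely the Psma to Psmg genes, the Cct genes, the Dnaja, Dnajb and Dnajc genes, the Hsp genes and Tcp1. Of 8726 genes on the platform 72 met this rule, represented by 75 probes. They comprised 9 genes of the proteasome core, 14 of its caps, 3 assembly factors, 4 chaperonin subunits, 26 Hsp40 genes and 16 other heat shock genes. Tcp1, Hspa1a, Hspa1b, Hspa5, Hspa8, Hspe1, Hsp90ab1, Psme1 and Psme2 were not among the 72 and were not analysed here. Male Balb/c mice aged 8 weeks had been injected under the skin with 1000000 CT-26.WT cells, a mouse colon carcinoma line, in 300 µl PBS. Control mice of the same strain, sex and age had received 300 µl PBS alone. The hypothalamus was taken after 18, 72 or 192 h. On every array RNA of tumor-injected mice in one dye competed directly with RNA of PBS-injected mice in the other. Each value is therefore a log2 ratio of tumor over PBS, positive where the tumor group was higher.

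The proteasome degrades proteins tagged with ubiquitin. Its barrel-shaped core holds the cutting sites inside, and caps at its ends recognise tagged proteins, remove the tag and thread the chain into the barrel. Chaperones keep proteins folded. Hsp70 proteins bind exposed stretches of a chain with the help of Hsp40 proteins, which deliver clients and start the ATPase of Hsp70. Hsp90 proteins finish the folding of signalling proteins, and the chaperonin encloses actin, tubulin and other clients in a ring. In neurons both systems take part in synaptic protein turnover, and many of their genes respond to heat shock, endoplasmic reticulum stress or oxidative stress.

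The values came from 19 arrays of 11 replicates. The 18 h time had 5 replicates, the 72 h time 2 and the 192 h time 4. Replicates 1 and 2 of the first and the last time were polyA RNA hybridised in a single dye orientation, and the other 7 were total RNA hybridised in both. Another 6 arrays were left out because the brightness of their spots, by gene name, did not follow that of the arrays used (median rho 0.0236 over 114 pairs, against 0.353 between platform versions among the arrays used). The labels do not state whether a replicate is a mouse or a pool of mice, so the tests measure the spread between these samples, part of which may be technical. An array gave ratios for 3056 to 9839 of its 10080 spots. The precision of the fitted values rests on the number of replicates with a value and on their spread. The direction of all ratios is likely but not settled, because the files name the channels only A and B and the dyes were assigned from the order in the labels. Of 16 hypothalamic marker genes listed, 12 were on the platform, among them Avp, Oxt, Pmch and Hcrt, and each gave a ratio on 9 to 19 of the 19 arrays. Markers of single cell types and neighbouring tissues also varied. The medians at 18, 72 and 192 h were -0.13, -0.14 and -0.089 for neurons (7, 5 and 5 genes tested), 0.052, -0.095 and -0.056 for microglia and macrophages (5, 2 and 1 genes), 0.22, 0.092 and -0.15 for the pituitary (2, 3 and 2 genes) and 0.23, -0.36 and 0.20 for blood (2 genes each). Oligodendrocyte markers had medians of -0.20, 0.027 and -0.040 (2, 1 and 1 genes), and astrocyte, vascular and ependymal markers, with at most 2 genes tested each, had medians from -0.15 to 0.0039. The part of these markers in the results was not tested. Fewer cells of a type and less RNA per cell cannot be told apart in this tissue RNA. In 18 h replicate 2, a single polyA array, the SD of the log2 ratios over genes was 0.90. In the other 10 replicates it was 0.21 to 0.56. Several, but not all, of the values that rest on 18 h replicate 2 are therefore also given without that replicate.

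Of the 72 genes, 57 had a promoter in the RefSeq table used here (GRCm38.p6, 250 bases before to 50 bases after the transcription start), with 72 promoters in all. Both strands were searched for motifs known from stress responses in mammals and for the plain CCAAT box. The heat shock element, the site of heat shock factors, was searched as 3 alternating GAA and TTC blocks set 2 bases apart, beginning with GAA. It was found in 5 of 72 promoters, or 6.944%, against 0.6027% of 32851 promoters of the same length, and those 5 belong to Hspd1, Hsph1 and Dnajb6. Its core of the first 2 blocks, GAANNTTC, which lies within the longer motif, was in 11.11% of the members' promoters and 7.86% of all. The endoplasmic reticulum stress element, CCAAT and CCACG set 9 bases apart, was found among these genes in Hsp90b1 and Dnajc3, or 2.778% of promoters against 0.1187% of all. The antioxidant response element TGACNNNGC occurred in 16.67% of the members' promoters and 12.39% of all, among them that of the core subunit Psmb6. The CCAAT box, which also opens the endoplasmic reticulum stress element, was about as common in these genes (37.5%) as in all promoters (37.41%). No core, cap or chaperonin promoter held the heat shock element in this window. The promoters of 5 genes whose ratios are described further on are printed 5′ to 3′ to show the 3 stress motifs, with each named motif in capitals: the endoplasmic reticulum stress element in Hsp90b1 and Dnajc3, the heat shock element in Hspd1 and Hsph1, and the antioxidant response element in Psmb6.
Hsp90b1, chr10:86705395-86705694, minus strand: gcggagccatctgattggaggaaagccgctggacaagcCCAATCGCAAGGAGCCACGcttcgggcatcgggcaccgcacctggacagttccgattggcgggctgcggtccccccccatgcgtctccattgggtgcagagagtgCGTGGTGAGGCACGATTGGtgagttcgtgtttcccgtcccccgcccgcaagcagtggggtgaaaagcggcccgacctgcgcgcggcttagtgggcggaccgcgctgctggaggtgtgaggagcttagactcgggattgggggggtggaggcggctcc
Dnajc3, chr14:118937682-118937981, plus strand: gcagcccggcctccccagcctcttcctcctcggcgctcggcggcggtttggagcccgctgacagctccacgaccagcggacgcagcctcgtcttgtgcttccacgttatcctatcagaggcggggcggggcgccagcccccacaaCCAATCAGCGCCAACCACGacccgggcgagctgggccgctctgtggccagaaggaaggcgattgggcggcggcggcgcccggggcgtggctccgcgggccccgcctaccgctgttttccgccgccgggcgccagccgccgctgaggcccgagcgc
Hspd1, chr1:55087883-55088182, minus strand: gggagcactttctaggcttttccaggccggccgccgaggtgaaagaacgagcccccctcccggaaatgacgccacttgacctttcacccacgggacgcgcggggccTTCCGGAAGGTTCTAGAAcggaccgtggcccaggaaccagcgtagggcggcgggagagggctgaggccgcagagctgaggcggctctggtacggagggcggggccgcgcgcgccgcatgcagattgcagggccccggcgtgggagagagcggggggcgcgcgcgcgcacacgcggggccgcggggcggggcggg
Hsph1, chr5:149636266-149636565, minus strand: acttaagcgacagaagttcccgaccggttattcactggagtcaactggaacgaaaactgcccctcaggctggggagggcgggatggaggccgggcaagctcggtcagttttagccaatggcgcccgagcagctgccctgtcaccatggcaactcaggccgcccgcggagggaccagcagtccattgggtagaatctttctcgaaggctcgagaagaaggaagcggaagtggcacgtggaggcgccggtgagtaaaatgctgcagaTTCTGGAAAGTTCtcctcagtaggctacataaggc
Psmb6, chr11:70525107-70525406, plus strand: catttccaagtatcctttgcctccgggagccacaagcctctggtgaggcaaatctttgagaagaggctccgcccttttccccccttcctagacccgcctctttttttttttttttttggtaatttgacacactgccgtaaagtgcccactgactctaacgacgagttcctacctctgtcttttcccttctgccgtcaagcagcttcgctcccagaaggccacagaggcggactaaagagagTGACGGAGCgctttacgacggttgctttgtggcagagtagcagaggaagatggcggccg
The element of Hsph1 lies after the transcription start. A match describes the letters and not a site in use.

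None of the genes that could be tested differed between tumor and PBS beyond the spread of the replicates at any time. A gene was tested with at least 3 values at 18 h or at 192 h and with both values at 72 h. The other 23, 56 and 35 genes had too few values at the 3 times, which left 49, 16 and 37 of the 72 genes. At an adjusted p under 0.05 limma called 0 of them and 0% of all 5064, 1933 and 2801 genes tested, with smallest adjusted p-values over all genes of 0.888, 0.991 and 0.373. At an unadjusted p under 0.05 the counts were 4 of 49 at 18 h, where 5.37% of all genes passed, 0 of 16 at 72 h (1.66%) and 3 of 37 at 192 h (4.18%). These shares are near those of all genes. At 18 h 1 gene passed above 0 (2.73% of all genes), namely Psmd7, and 3 passed below 0 (2.65%), namely Psmb3, Cct8 and Hspb11. At 192 h Psmc4 and Hsp90b1 passed above 0 (1.61% of all genes) and Dnajc4 below 0 (2.57%).

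The sign of the fitted ratios was uneven between the times. At 18 h 33 of 49 genes lay below 0, against 50.7% of all genes, and 16 above, against 49.3%. Their median log2 ratio was -0.068, against -0.0025 over all genes. Without 18 h replicate 2 the median was -0.024, against 0.0082 over all genes, and 42.2% of 45 genes lay above 0, against 52.8% of all. With the total RNA replicates alone this median was 0.0089, and 53.8% of the 26 genes still tested lay above 0. At 72 h 11 of 16 genes lay above 0, against 52.7% of all genes, and their median was 0.099, against 0.013 over all genes, while with the authors' own values it was -0.0023. At 192 h 26 of 37 genes lay above 0, against 41.9% of all genes, with a median of 0.066, against -0.026 over all genes. With median centring in place of the loess curve 18.9% of the genes lay above 0 at 192 h with a median of -0.088, where the median of all genes was -0.14. At each time the median thus took the other sign under at least 1 alternative, though at 192 h it stayed above the median of all genes under median centring.

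Some genes kept one sign in every replicate of a time that measured them. At 18 h 3 genes were above 0 throughout (8.87% of all genes) and 2 below 0 (7.5%). At 72 h, with 2 replicates, 9 genes were above 0 in both (27.2%) and 2 below 0 (26%). At 192 h 6 genes were above 0 throughout (6.53%) and 2 below 0 (7.78%).

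**Figure D1:**
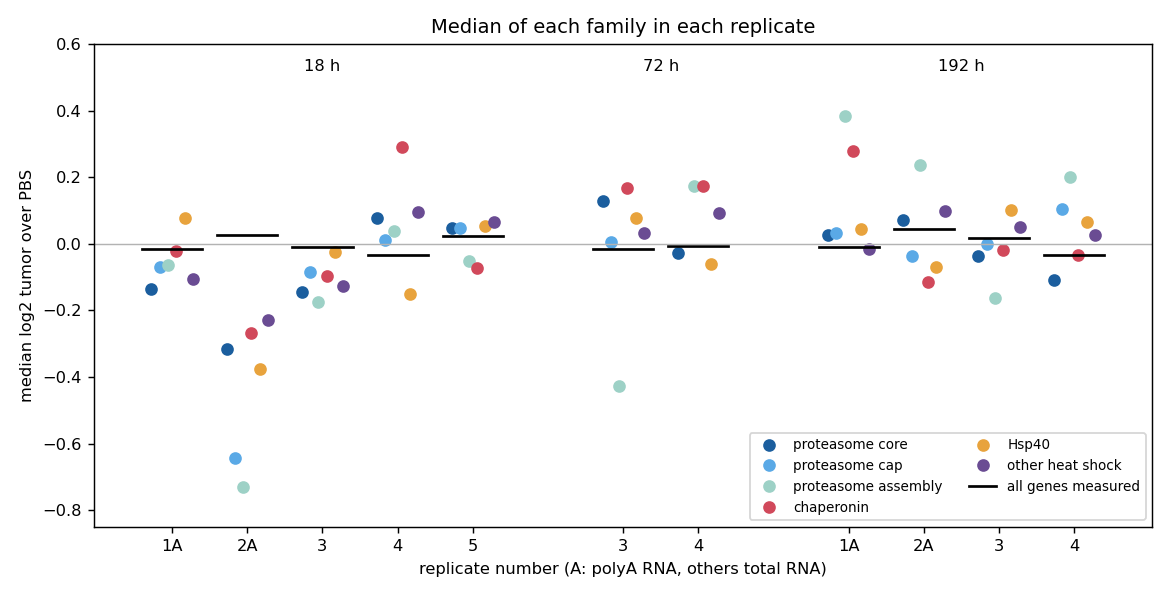
Median log2 ratio of tumor over PBS (vertical axis) of the members of each family in each replicate (horizontal axis, by time), with the median of all genes measured as a black bar. The cap median of -0.64 and the assembly median of -0.73 in 18 h replicate 2 are the lowest points.

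The replicates differed within a time. In 18 h replicate 2 the median of the 27 genes measured was -0.27, against 0.028 for all genes of that replicate. In replicates 1, 3, 4 and 5 of 18 h it was -0.035, -0.13, -0.077 and 0.040, against -0.014, -0.0096, -0.033 and 0.022 for all genes. At 72 h the medians were 0.034 and 0.055, against -0.017 and -0.0078 for all genes. At 192 h they were 0.057, 0.053, 0.022 and 0.026, against -0.011, 0.043, 0.019 and -0.035. The genes' medians at 72 h and 192 h were all above 0, but in replicates 2 and 3 of 192 h they were close to that of all genes.

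**Figure D2:**
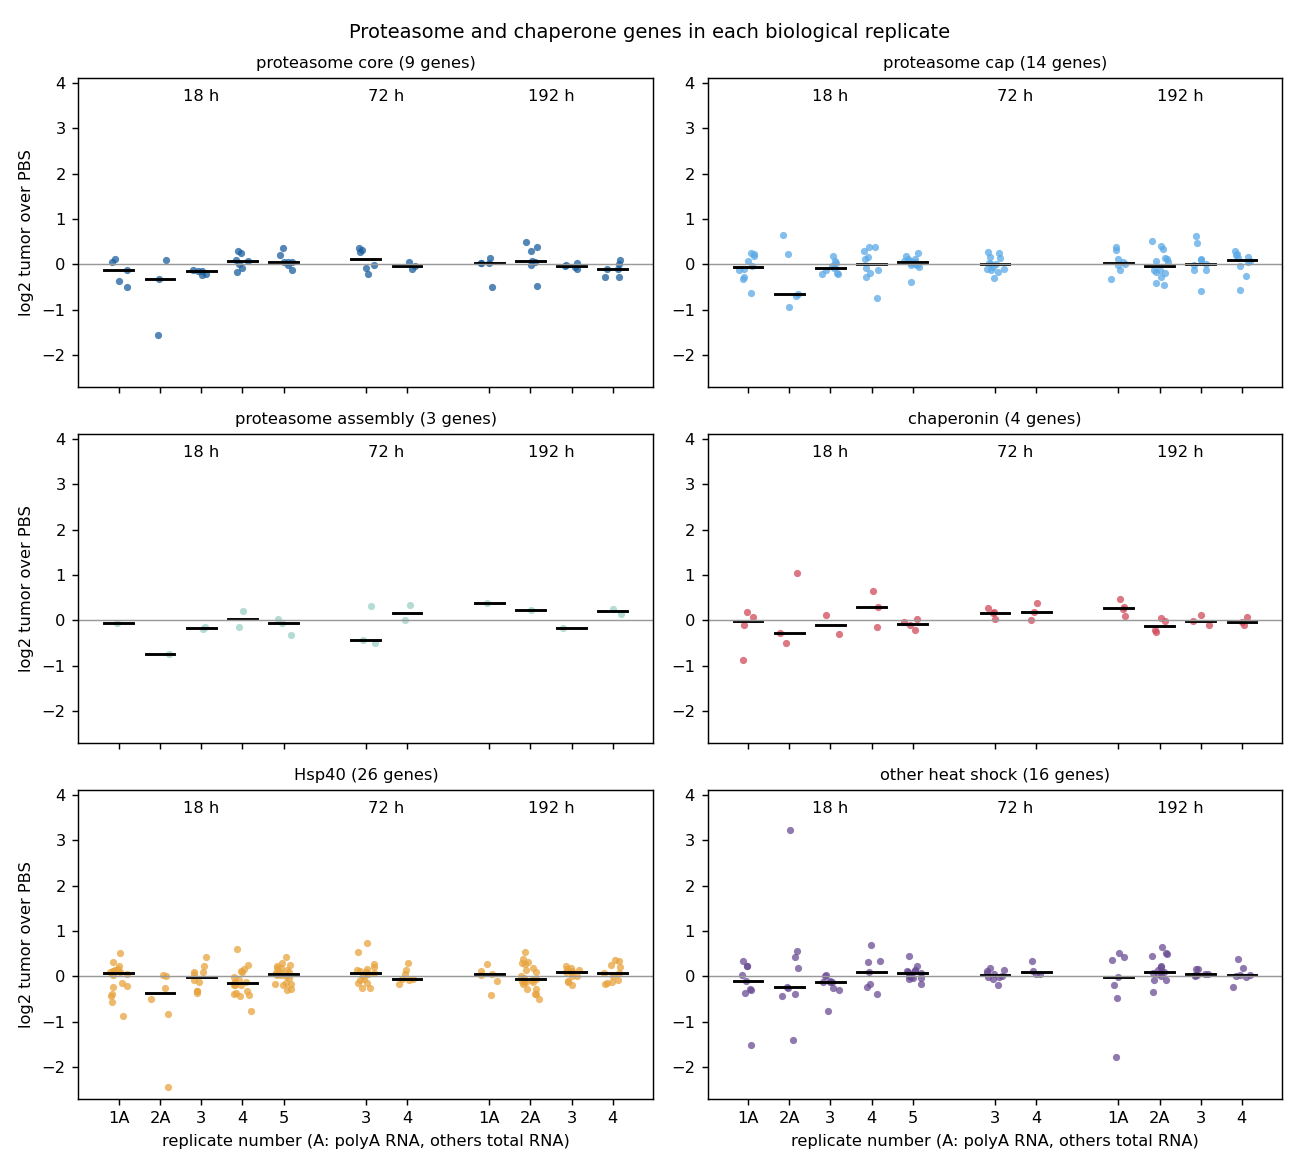
Log2 ratio of tumor over PBS (vertical axis) of every member in every replicate (horizontal axis, by time), 1 panel per family, with the family's median as a black line. The points scatter on both sides of 0 in most replicates, and the farthest from 0 are Hsp25-ps1 at 3.22 and Dnaja1 at -2.43, both in 18 h replicate 2.

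In the values that follow, replicates are given by number, leaving out those without a value for the gene. Among the core genes Psmb3, a non-catalytic β subunit, was the lowest at 18 h. Its log2 ratios were -0.49, -1.56, -0.23, -0.18 and 0.043 at 18 h, 0.35 and 0.043 at 72 h, and -0.020, 0.022 and -0.0011 at 192 h. At 18 h 4 of the 5 values were below 0, while the later ones lay near or above it. The 18 h mean was -0.48 ± 0.63 (SD, n = 5), with a fitted SE of 0.16 and an adjusted p of 0.888 in limma. Without 18 h replicate 2 the fitted ratio was -0.17, without 18 h replicate 1 it was -0.29, and with total RNA alone it was -0.12. Psmb6, the subunit with the caspase-like cutting site and the only catalytic one measured, had log2 ratios of 0.13, -0.15, 0.29 and 0.047 at 18 h, -0.21 and -0.029 at 72 h, and -0.50, 0.048, -0.0095 and 0.10 at 192 h. Its values lay on both sides of 0 at 18 h and at 192 h, with fitted ratios of 0.13 (SE 0.12), -0.12 (SE 0.16) and -0.090 (SE 0.11) at the 3 times. For the core as a family 3 of 6 genes tested were above 0 at 18 h, 2 of 3 at 72 h and 4 of 6 at 192 h. The medians were 0.00011, 0.11 and 0.044, and that of 72 h was -0.029 without 72 h replicate 3. The germ-cell α subunit Psma8 gave no replicate value. The catalytic subunits Psmb5 and Psmb7 and the immunoproteasome subunits Psmb8, Psmb9 and Psmb10 were not analysed here.

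No cap gene could be tested at 72 h, since 72 h replicate 4 measured none of them. Psmc4, one of the ring of ATPases that unfold the substrate, had the highest fitted ratio of the caps at 192 h. Its log2 ratios were 0.26, -0.95, -0.22, 0.29 and 0.18 at 18 h, -0.11 at 72 h, and 0.077, 0.62 and 0.14 at 192 h. All 3 values at 192 h were above 0, and 1 of them stood well above the others. That value of 0.62 averages 1.58 with tumor RNA in Cy5 and -0.33 with tumor RNA in Cy3. The mean of the 3 values was 0.28 ± 0.30 (SD, n = 3). The fitted value of 0.45 (SE 0.17, limma adjusted p 0.999) includes an adjustment of the single polyA value for its dye. Without a dye term it was 0.28. Psmd7, a scaffold subunit beside the enzyme that removes the ubiquitin tag, had log2 ratios of 0.22, 0.081, 0.38 and 0.26 at 18 h, -0.060 at 72 h, and -0.32, 0.34, 0.00013 and 0.23 at 192 h. All 4 values at 18 h were above 0, and those at 192 h lay on both sides of it. The 18 h mean was 0.23 ± 0.12 (SD, n = 4), and the fit gave 0.29 (SE 0.11) with a limma adjusted p of 0.888. Psmd1, the large scaffold of the cap's base, was the lowest of the caps at 18 h, with -0.21, -0.75 and 0.022 at 18 h, 0.014 at 72 h, and 0.053, 0.089 and 0.29 at 192 h. One low value at 18 h set it apart. Of the 12 cap genes tested at 18 h 9 were below 0 with a median of -0.064, which was 0.053 with total RNA alone. Of the 10 tested at 192 h 7 were above 0, with a median of 0.073.

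By symbol the caps also take in Psmc3ip, which is named for its binding to a cap ATPase and acts in meiotic recombination. Its ratios at 192 h of -0.12, -0.42 and -0.56 gave the lowest fit of the group, -0.37 (SE 0.19, limma adjusted p 0.999), after -0.13, 0.64 and -0.39 at 18 h. Of the alternative caps, the activator Psme3 was singled out after its values were seen, because all 4 were below 0. They were -0.083 at 18 h, -0.31 at 72 h, and -0.13 and -0.58 at 192 h, too few for a test at any time. Among the assembly factors Psmg2, which helps to join the α ring, was measured in all 11 replicates, with -0.064, -0.73, -0.20, 0.21 and -0.33 at 18 h, 0.32 and 0.017 at 72 h, and 0.38, 0.24, -0.16 and 0.25 at 192 h. Most values were below 0 at 18 h and above 0 at the later times, with overlap between the times. Its partner Psmg1 had -0.052 at 18 h and -0.49 and 0.33 at 72 h, and Psmg3, the third assembly factor, had -0.15, -0.14 and 0.024 at 18 h, -0.43 at 72 h, and 0.15 at 192 h.

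The 4 chaperonin subunits measured were Cct5, Cct6a, Cct7 and Cct8, each a position in the same ring. Cct8 had log2 ratios of -0.88, -0.50, -0.16 and -0.038 at 18 h, 0.27 and 0.17 at 72 h, and 0.26, -0.22, 0.12 and -0.10 at 192 h. All 4 values at 18 h were below 0 and both values at 72 h above it, and the share of all genes that did so was not counted. The 18 h mean was -0.39 ± 0.38 (SD, n = 4), with a fitted SE of 0.14 and a limma adjusted p of 0.888. Without 18 h replicate 1 the fitted ratio was -0.14, and without 18 h replicate 2 it was -0.35. Cct7 had 0.18, -0.27, 0.11, 0.65 and 0.036 at 18 h, 0.022 and 0.38 at 72 h, and 0.099, -0.0080, -0.11 and -0.033 at 192 h. Cct5 had -0.11, 1.05, -0.31, 0.29 and -0.21 at 18 h, 0.18 at 72 h, and 0.30, 0.060 and 0.081 at 192 h. Subunits of the one ring had ratios of opposite sign in the same replicate, as in 18 h replicate 2, where Cct5 was at 1.05 and Cct8 at -0.50. Without that replicate the 18 h fit of Cct5 was -0.10, against 0.14 with it. Cct6a, with the fewest values, had 0.070 and -0.10 at 18 h, 0.16 and 0.0047 at 72 h, and 0.47, -0.25 and -0.020 at 192 h. All 3 subunits tested at 72 h were above 0, with a median of 0.20, although with the authors' own values this median was -0.014.

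Hsp40 genes make up the largest family, and 16, 5 and 9 of the 26 were tested at the 3 times. At 18 h 12 of 16 were below 0 with a median of -0.097, which was -0.036 over 14 genes without 18 h replicate 2. It was 0.087 over 4 genes with both channels above background. That filter kept spots whose background-subtracted signal exceeded the local background in both channels. At 72 h 3 of 5 were below 0 with a median of -0.00065. At 192 h 4 of 9 were below 0, and the median of 0.039 became -0.026 with print-tip loess and -0.15 with median centring. Dnaja1, a cytosolic partner of Hsp70, had log2 ratios of 0.10, -2.43, -0.090, 0.17 and 0.18 at 18 h, -0.080 at 72 h, and 0.26, 0.54, 0.099 and -0.15 at 192 h. The value of -2.43 stood alone, and the other 18 h values lay on both sides of 0. The 18 h fit of Dnaja1 was -0.41 (SE 0.27) with that replicate and 0.11 without it. Dnajb1, the main heat-inducible Hsp40, had 0.31, -0.020 and 0.080 at 18 h, -0.15 at 72 h, and -0.11, -0.51 and 0.10 at 192 h. Its values lay on both sides of 0 at 18 h and at 192 h. Dnajc4 had -0.24, -0.19 and 0.087 at 18 h, 0.73 at 72 h, and -0.41, -0.28 and -0.17 at 192 h. All 3 values of Dnajc4 at 192 h were below 0, with a mean of -0.29 ± 0.12 (SD, n = 3), a fitted SE of 0.13 and a limma adjusted p of 0.999.

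Several Hsp40 genes have special tasks. Dnajc6, or auxilin, brings Hsp70 to clathrin coats so that they come off synaptic vesicles, and had 0.15, -0.49, -0.32 and -0.31 at 18 h, -0.14 at 72 h, and 0.11, 0.28, -0.10 and 0.20 at 192 h. Most of its values were below 0 at 18 h and above 0 at 192 h. Dnajc3, an endoplasmic reticulum protein that also inhibits kinases of the translation factor eIF2α, and whose promoter is printed above, had -0.44, -0.00030 and -0.035 at 18 h, 0.15 and 0.29 at 72 h, and 0.058, -0.041, 0.13 and 0.34 at 192 h. Its 18 h values, 1 of them practically 0, were all below its 72 h values, and the share of all genes that did so was not counted. The endoplasmic reticulum Hsp40 Dnajb9 had 0.12, -0.32, 0.11 and 0.43 at 18 h, 0.0091 at 72 h, and 0.13 and -0.20 at 192 h, with no sign common to 18 h or to 192 h. Dnajc18 had 0.15, -0.36, -0.082 and -0.15 at 18 h, 0.13 and -0.16 at 72 h, and -0.27, -0.14 and 0.065 at 192 h, and Dnajc5b, a relative of the cysteine string protein, had 0.52, 0.23, -0.77 and 0.15 at 18 h, -0.048 and -0.061 at 72 h, and -0.078 at 192 h.

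Both Hsp90 genes measured had fitted ratios above 0 at 192 h. Hsp90b1, the Hsp90 of the endoplasmic reticulum, whose promoter holds the stress element, had log2 ratios of 0.22, -0.26, -0.13, -0.16 and -0.044 at 18 h, -0.0062 at 72 h, and 0.36, 0.53 and 0.057 at 192 h. All 3 values at 192 h were above 0, and 4 of 5 at 18 h were below it. The 192 h mean was 0.31 ± 0.24 (SD, n = 3), with a fitted SE of 0.13 and a limma adjusted p of 0.999. With median centring it was 0.11, and with all 25 arrays it was -0.21. Hsp90aa1, the stress-inducible cytosolic Hsp90, was above 0 in 10 of the 10 replicates that measured it. Of the 806 genes measured in at least 10 replicates, 1 (0.124%) was above 0 in all of its values, and that gene is Hsp90aa1 itself. The share was counted for this gene alone, so it is not separate evidence for it. The log2 ratios of Hsp90aa1 were 0.024, 0.0065, 0.34 and 0.079 at 18 h, 0.11 and 0.13 at 72 h, and 0.52, 0.21, 0.0015 and 0.026 at 192 h. Several of these values are next to 0, and in 6 of its 7 total RNA replicates the dye orientations had opposite signs before they were averaged. The fitted ratios were 0.092 (SE 0.12), 0.12 (SE 0.16) and 0.19 (SE 0.11) at the 3 times, with limma adjusted p-values of 0.941, 0.991 and 0.999.

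Chaperones of mitochondria and of the Hsp70 cycle showed no common direction across the times. Hspd1, the chaperonin of mitochondria, had 0.12 at 18 h, 0.062 at 72 h, and 0.50, 0.027 and 0.37 at 192 h. Hsph1, a nucleotide exchange factor of Hsp70, had -0.36, -0.25 and 0.12 at 18 h, -0.053 at 72 h, and 0.42, -0.071 and 0.16 at 192 h. The promoters of Hspd1 and Hsph1 hold the heat shock element, and their limma adjusted p-values at 192 h were both 0.999. Hspa9, the Hsp70 of mitochondria, had -0.11, -1.41, 0.021, 0.31 and 0.095 at 18 h, 0.0015 at 72 h, and -0.014, 0.23, 0.051 and -0.0024 at 192 h. Apart from -1.41 in 18 h replicate 2, the values of Hspa9 lay between -0.11 and 0.31, and its 18 h fit was -0.22 (SE 0.18) with that replicate and 0.12 without it. Hspa4, a relative of Hsph1, had -0.27, 0.19, -0.13 and 0.24 at 18 h and -0.49 and -0.34 at 192 h, and Hspa13, a microsomal Hsp70 relative, had 0.24, -0.44 and 0.15 at 18 h, 0.13 and 0.055 at 72 h, and -0.20, 0.44, 0.026 and -0.24 at 192 h. As a family, 4 of 10 other heat shock genes tested were above 0 at 18 h (median -0.045), 3 of 3 at 72 h (median 0.12) and 6 of 7 at 192 h (median 0.17). The 18 h median was -0.0096 without 18 h replicate 2 and 0.096 over 5 genes with both channels above background. The 192 h median was -0.076 with median centring and -0.011 without 192 h replicate 2.

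Among the remaining heat shock symbols, Hspb11 encodes a component of intraflagellar transport. It had -0.30, -0.39, -0.40 and 0.013 at 18 h and 0.00023 and -0.022 at 192 h, so 3 of 4 values at 18 h were well below 0. The 18 h mean was -0.27 ± 0.19 (SD, n = 4), with a fitted SE of 0.11 and a limma adjusted p of 0.888, and the fit was -0.068 with print-tip loess. Hspb2, a small heat shock protein of muscle, had 0.35, -0.23, -0.12 and 0.69 at 18 h, 0.083 and 0.34 at 72 h, and 0.082 and 0.026 at 192 h. The pseudogene Hsp25-ps1 had the widest spread of all members at 18 h, with -1.50, 3.22, -0.31, 0.095 and 0.44 at 18 h, 0.057 at 72 h, and -1.77, 0.65, 0.16 and 0.19 at 192 h. At both 18 h and 192 h it was low in polyA replicate 1 and high in polyA replicate 2, which were hybridised in opposite dye orientations. The 18 h fit was 0.39 (SE 0.23), and 0.0092 without 18 h replicate 2. Its parent Hspb1 was not analysed here, and a probe for the pseudogene may also bind transcripts of a near-identical gene.

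**Figure D3:**
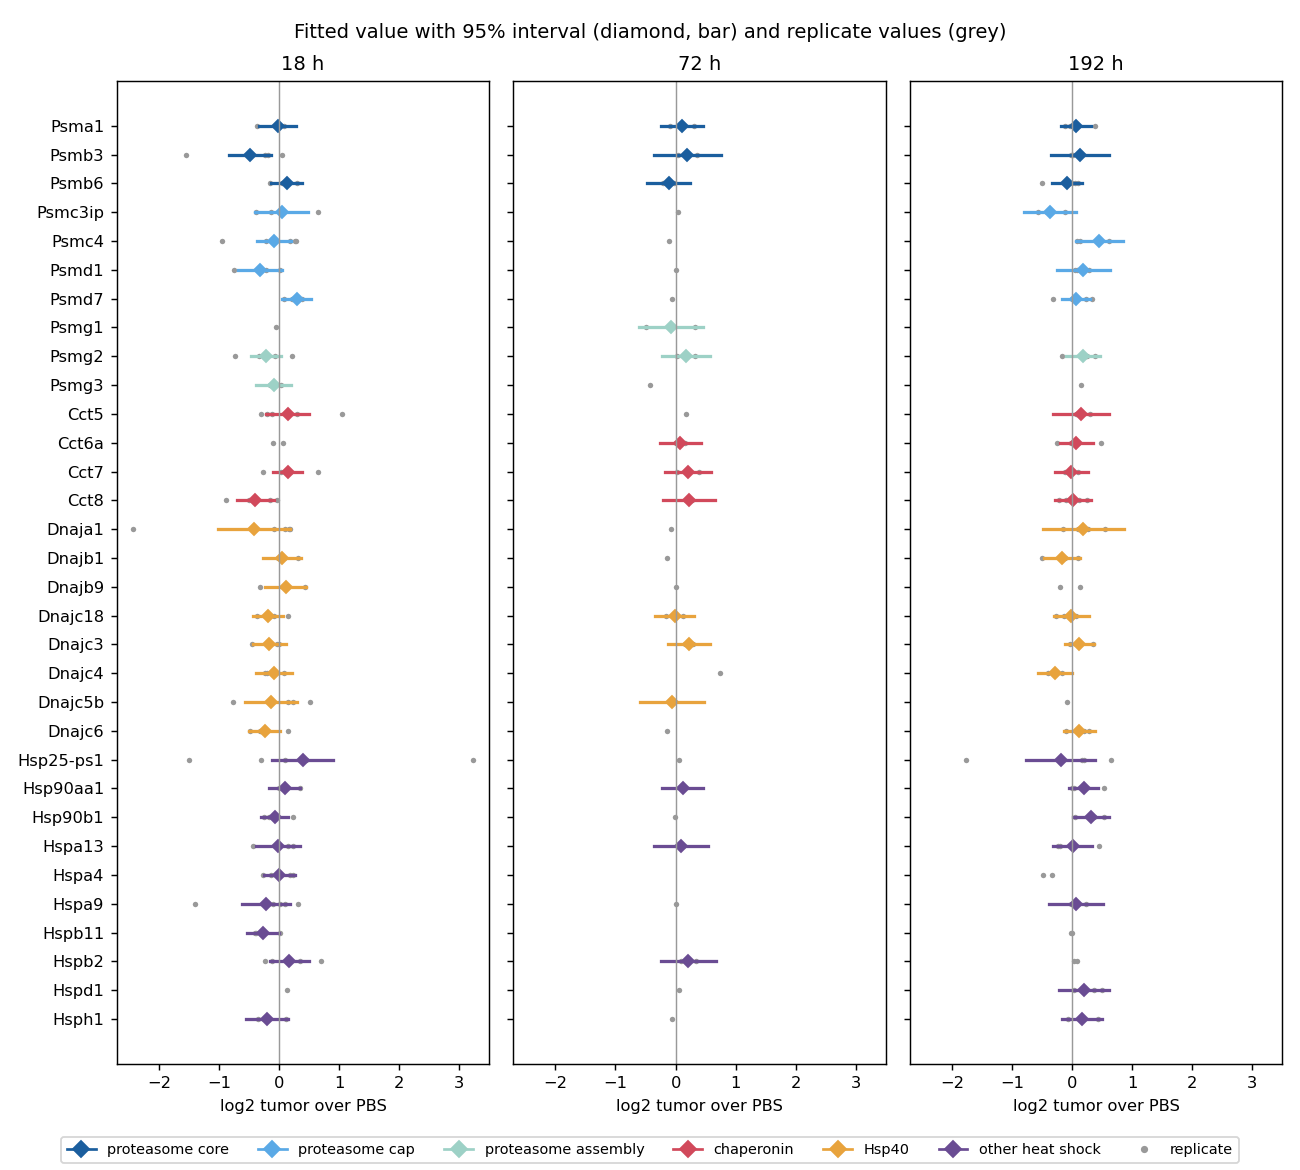
Fitted log2 ratio of tumor over PBS (diamonds, horizontal axis) with its 95% interval (bars) for 32 members at each time, and the replicate values as grey points. The intervals of Psmb3, Cct8 and Hspb11 lie below 0 at 18 h and that of Psmd7 above it, and at 192 h those of Psmc4 and Hsp90b1 lie above 0 and that of Dnajc4 below it. These intervals are not adjusted for the number of genes tested.

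Differences between times were tested in the same model. For 72 h minus 18 h 13 of 14 genes were above 0, against 50.5% of all genes, and 0 of them passed an adjusted p of 0.05 in limma (0% of all 1644 genes). Psmb3 (0.68, SE 0.30) and Cct8 (0.62, SE 0.24) passed above 0 at an unadjusted p under 0.05, as did 0.304% of all genes, where 1.64% passed in either direction. Both had an adjusted p of 0.998. Without 18 h replicate 2 the differences were 0.37 (SE 0.19) for Psmb3 and 0.57 (SE 0.25) for Cct8, of which Cct8 still passed without adjustment, and 8 of 12 genes lay above 0 with a median of 0.053, against 0.12 with it. For 192 h minus 18 h 24 of 34 genes were above 0, against 45.6% of all genes, and again 0 passed after adjustment (0% of 2506 genes). Psmb3 (0.62, SE 0.27), Psmc4 (0.54, SE 0.22), Psmg2 (0.40, SE 0.18) and Hsp90b1 (0.39, SE 0.17) passed above 0 without adjustment, as did 1.88% of all genes, where 5.83% passed in either direction. Their adjusted p was 0.803. Without 18 h replicate 2 they were 0.11 for Psmb3, 0.29 for Psmc4, 0.29 for Psmg2 and 0.35 for Hsp90b1, and none of the 4 passed without adjustment. For 192 h minus 72 h 5 of 13 genes were above 0, against 40% of all genes, and 0 passed before or after adjustment in limma, where 2.84% and 0% of 1305 genes passed. The first and second differences share the 18 h samples, so they are not separate evidence for a gene. All 3 set times with polyA and total RNA beside each other or beside total RNA alone at 72 h.

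Over the average of the 3 times 12 genes could be tested, and 7 of them were above 0, against 51.9% of all genes. Hsp90aa1 had the highest average (0.13, SE 0.075), followed by Cct7 (0.11, SE 0.081), and Dnajc18 had the lowest (-0.073, SE 0.072), all with a limma adjusted p of 0.996. In limma 0 of 12 genes were called before or after adjustment, where 1.81% and 0% of 1217 genes passed. The median SE of the genes tested was 0.13 at 18 h, 0.18 at 72 h and 0.14 at 192 h. The 95% intervals of 48 of 49, 16 of 16 and 37 of 37 genes stayed within 1 of 0 on the log2 scale, and those of 36, 7 and 24 genes stayed within 0.5 of 0. For 19 of 49 genes at 18 h and 9 of 37 at 192 h the dye term adjusted a single polyA value. For Dnajc5b at 18 h and for Hspd1, Psmd1 and Psme4 at 192 h it was the gene's only polyA value. The dye term then took up that value, and the fit rested on the total RNA values alone. Where both polyA values exist at 1 time and none at the other, their difference goes into the dye term and not into the SE.

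**Figure D4:**
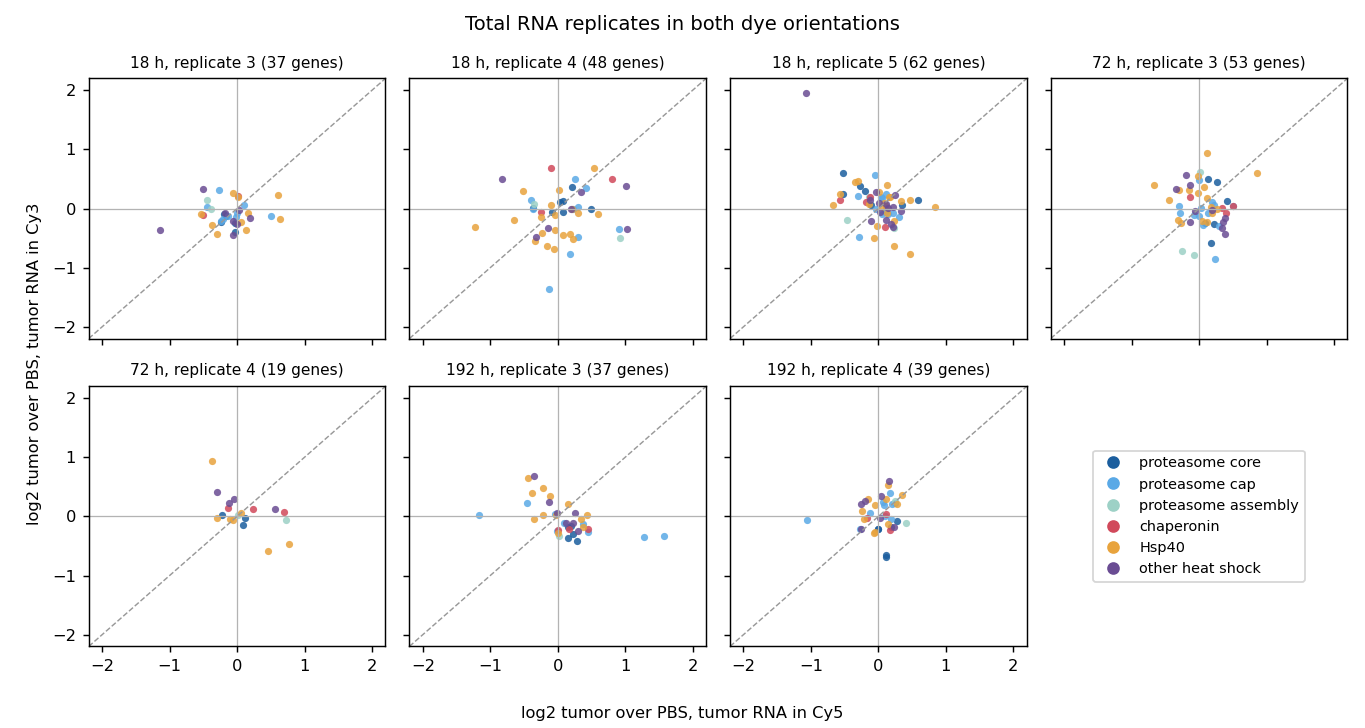
Log2 ratio of tumor over PBS of the members in the 7 total RNA replicates, with tumor RNA in Cy5 on the horizontal axis and in Cy3 on the vertical axis. Points of equal value lie on the dashed line, and in 5 of the 7 panels r is below 0, from -0.59 to -0.083. Over all genes r ran from -0.56 to 0.045. Hsp25-ps1 in 18 h replicate 3, at -2.35 and 1.73, lies outside the range drawn.

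The same replicate gave different ratios in its dye orientations. Across the members, r between the orientations was -0.59, 0.095 and -0.51 for replicates 3 to 5 of 18 h, -0.083 and -0.57 for replicates 3 and 4 of 72 h, and -0.56 and 0.12 for replicates 3 and 4 of 192 h. This is a description across 19 to 62 genes of 1 pair of arrays each, and the genes are not independent replicates. Over all genes r ran from -0.56 to 0.045. The pseudogene Hsp25-ps1 had -2.35 and 1.73 in the orientations of 18 h replicate 3, and -1.08 and 1.96 in those of replicate 5. Among the Hsp40 genes alone r was 0.30 in 18 h replicate 3 and -0.33 in replicate 5. The weight of Hsp25-ps1 in r was not tested. The sign was the same in both orientations for 13.5% to 59.5% of the members and 36.3% to 53.8% of all genes. The median absolute difference between orientations was 0.21 to 0.39 for the members. That exceeds the median absolute fitted ratio, which was 0.092, 0.11 and 0.10 at the 3 times. A pair of probes for one gene also differed: the brighter probe of Dnajc24 had 0.25 and -0.16 in replicates 4 and 5 of 18 h and 0.059 in 72 h replicate 4, where the other had -0.14, 0.073 and 0.25.

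Genes that work beside these families were taken from 5 lists, of which 0 genes passed adjustment in limma at any time. Of the prefoldin and chaperonin helpers 2 of 3 tested were above 0 at 18 h and 0 of 2 at 192 h. For heat shock factors and co-chaperones the counts above 0 were 3 of 8 at 18 h, 1 of 1 at 72 h and 2 of 6 at 192 h. For endoplasmic reticulum folding and the unfolded protein response they were 5 of 15, 2 of 3 and 3 of 6. These lists had no direction common to the times. Ubiquitin and proteasome partners were above 0 in 3 of 8, 2 of 3 and 2 of 7 genes, and mitochondrial proteases and import chaperones in 4 of 8, 2 of 4 and 6 of 6, where 49.3%, 52.7% and 41.9% of all genes were. At an unadjusted p under 0.05 the lists held 1 of 42 genes tested at 18 h (5.37% of all genes), 0 of 11 at 72 h (1.66%) and 1 of 27 at 192 h (4.18%). These were Grpel2 at 18 h (-0.34, SE 0.14), a nucleotide exchange factor of the mitochondrial Hsp70, and Htra2 at 192 h (0.37, SE 0.14), a mitochondrial protease. Their limma adjusted p-values were 0.888 and 0.999.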

How the data were processed

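Background-subtracted intensities of 2 channels per spot were deposited by the authors, per the file headers, in 3 scanner files per array, and 35.8% of them were 0 and entered no ratio. The authors also deposited a log ratio per spot, which was read here as natural log because its base is not stated, and which served only as an alternative.

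Per scan, log2 ratios of spots with both channels above 0 were corrected by loess (limma loessFit, span 0.3, 4 iterations). The 3 scans were averaged, turned to tumor over PBS by the labelled dyes and averaged per replicate, and a total RNA replicate needed both orientations. The brightest probe stood for a gene. All 8726 genes entered limma 3.58.1 (lmFit, eBayes) in R 4.3.3, modelled by time with dye as a further term and adjusted by Benjamini-Hochberg. The procedure was tested on simulated data.

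The members, lists and tests were chosen with earlier results of these data known. Named are, per family and time, the 2 genes with the smallest p, the highest and the lowest, and the 2 smallest over the average. Catalytic subunits and chief chaperones of a fixed list were also named, where they were among the genes analysed. Alternatives covered normalization, filters, probes, arrays, dye term, RNA type, blocks and each replicate left out. The background filter among them kept spots whose background-subtracted signal exceeded the local background in both channels, a stricter rule than signal above 0.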

Additional observations from a re-analysis of the deposited data

Results flagged for a closer look

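In 40 groups of 4 or 5 replicate values (named genes and family medians at 18 h and 192 h), the replicate farthest from the others was checked against Dixon's limit, which chance passes in about 1 of 20 groups. It was passed 4 times, each time by 18 h replicate 2. Dnaja1 stood at -2.43 there, Hspa9 at -1.41, the median of the cap genes at -0.64 and the median of the assembly factors, which is the single gene Psmg2 in that replicate, at -0.73. This replicate is the polyA array with the widest spread over all genes.

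All values of Cct8 were below 0 at 18 h (n = 4) and above 0 at 72 h (n = 2), with a difference of 0.62 for 72 h minus 18 h. The same held for Dnajc3 (n = 3 and n = 2) with 0.38, where 1 value at 18 h was -0.00030. Of all genes tested, 7.5% were below 0 in every replicate measured at 18 h, and 27.2% were above 0 in both at 72 h. The share of genes with both traits was not counted. Neither difference passed adjustment in limma (adjusted p 0.998 for both).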

How the results depend on the processing

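With normexp no named ratio was farther from 0 than 0.00444, so that setting says nothing about direction. Over the other alternatives 20 of 53 named values kept their sign in every one and 33 did not, and of 17 family medians by time 2 kept it. The share of genes above 0 at 18 h (32.7%) was 54.2% with normexp, 68% of 25 genes with both channels above local background and 53.8% with total RNA alone. At 192 h the share of these genes above 0 (70.3%) was 18.9% with median centring, where the median of all genes was -0.14. The median at 72 h (0.099) was 0.030 with print-tip loess, 0.053 with median centring, 0 with normexp, -0.0023 with the authors' values, 0.029 over 2 genes with both channels above background and -0.0030 with all 25 arrays. The median at 192 h (0.066) was -0.088 with median centring, 0 with normexp, 0.0089 with the authors' values, 0.028 with both channels above background, 0.030 with all 25 arrays and 0.040 with total RNA alone. Hsp90b1 at 192 h was -0.21 with all 25 arrays. Calls over all genes stayed at 0 except 4 at 72 h with all 25 arrays and 1 at 192 h with total RNA alone. The cause of these shifts was not tested.

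Leaving out 1 replicate at a time gave 0 to 1 calls at 72 h and for 72 h minus 18 h (1 without 72 h replicate 4), 0 to 3 at 192 h (3 without 18 h replicate 2) and 0 elsewhere. Without either 72 h replicate that time rests on 1 sample, which is assumed to vary like the other times. The share of genes above 0 ran from 25.8% to 45.9% at 18 h, 60.4% to 68.8% at 72 h and 55.6% to 74.1% at 192 h. The medians ran from -0.12 to -0.024, from 0.034 to 0.099 and from 0.015 to 0.080. Over 8 pairs of the same replicate number, r of the deviations from the time means was 0.55 and 0.39 for the polyA numbers 1 and 2, which share a dye orientation, and -0.065 to 0.12 for the 6 total RNA pairs, against a median of -0.022 for different numbers. For the polyA numbers 1 and 2, a pairing by number and a shared dye orientation cannot be told apart. The dye term is set by the same polyA replicates, so it also holds any difference between these numbers. The numbers were not taken to pair the samples in the main fit. The fit with the replicate number as a block gave 0 calls and medians of -0.067, 0.095 and 0.063. With the platform version as a random block there were also 0 calls. The ratio of background-subtracted signal to local background, at spots with both channels above 0, had array medians from 0.936 to 3.70. This low signal limits all values.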
